A study of Mus musculus with 18 samples.

Results

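The 48 genes described here encode the machinery that forms autophagosomes, the cargo receptors and transcription factors that serve it, and proteins of the lysosome in which cargo is degraded. They were taken from a fixed list of autophagy, lysosome and vacuolar ATPase genes, out of 21627 protein-coding genes on mouse chromosomes 1 to 19 and X. For each gene, the percent and the kilobases of the annotated gene body (build mm10) covered by peaks of dimethylated lysine 79 of histone H3 (H3K79me2) were measured in 9 peak lists. Chromatin of WT CD4+ T cells was immunoprecipitated and sequenced, in 3 libraries each of Th1, Th2 and naive cells.

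Th1 and Th2 cells were grown from enriched CD4+ T cells for 4 days on plates coated with anti-CD28 and anti-CD3. For Th1 cells the medium held IL-12, IL-2 and an antibody to IL-4, and cells were sorted by YFP from an IFNg-YFP reporter mouse. For Th2 cells it held IL-4, IL-2 and an antibody to IFNg, and cells were sorted by AmCyan or dsRed from the 4C13R reporter mouse, which marks IL-4 and IL-13. Naive cells (CD44- CD62L+) were sorted straight from spleens of WT mice without culture. Culture, reporter strain and cell type thus differed together between polarised and naive cells and cannot be told apart. Between Th2 and Th1 cells, reporter strain and cytokines likewise differed together and cannot be told apart. The labels do not say if libraries of a group derive from different mice, so the p-values reflect spread among libraries alone, part of which may be technical.

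H3K79me2 is deposited by the methyltransferase DOT1L over the bodies of transcribed genes, densest just inside the 5′ end. Autophagy begins with the ULK kinase complex and a PI3-kinase complex, which prepare a membrane that ubiquitin-like conjugation reactions then decorate with ATG8 proteins. The closed vesicle fuses with lysosomes, whose V-ATPase acidifies the lumen for cathepsins and other hydrolases. T cells use this pathway to clear mitochondria and endoplasmic reticulum, and loss of its core genes impairs the survival of naive T cells.

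The peak lists differed in extent. They covered 217 to 240.1 Mb in Th1 cells, 232 to 249.9 Mb in Th2 cells and 276 to 285 Mb in naive cells. The naive lists were all longer than those of the other groups (exact permutation test, 2-sided, p = 0.1 for each comparison with naive cells, adjusted p = 0.15 over 3 comparisons, 0.1 being the smallest p of 3 against 3). Read depth was not given, so a wider mark and a deeper or cleaner library cannot be told apart, and results that change when all lists are cut to the same covered length are named as such. A partial coverage likewise does not tell fewer cells carrying the mark from a shorter domain in each cell. Among marker genes, Cd3e, Thy1 and Lat were covered over 100% in all 9 lists and Cd4 over 80.02 to 86.4%. The percentages of Cd8a and Cd8b1 summed to 7.55 to 11.9 in Th1, 24.8 to 39.2 in Th2 and 200 in all naive lists, so that the naive lists, labelled CD4+, had the mark over both Cd4 and the Cd8 genes. Of 9 myeloid genes, Lyz2, Csf1r, Cd14, Adgre1 and Mpeg1 were at 0% in all 9 lists. The percentages of the 9 myeloid genes summed to 144 to 157 in Th1, 179 to 200 in Th2 and 207 to 210.5 in naive lists, mostly from Cd68, at 100% everywhere, and Tyrobp. Among markers of B cells, Blk, Pax5 and Ms4a1 were at 0% in all 9 lists, Cd79a was at 100%, and Cd79b was at 0% in Th1 and Th2 lists and at 36.0 to 84.0% in naive lists. The part of such differences between the sorts in the results below was not tested.

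Most of the autophagy and lysosome genes carried the mark in all 3 cell types. At least 1 peak overlapped the gene in at least 2 of 3 libraries for 44 of 48 members in Th1, 45 in Th2 and 46 in naive cells, against 10805, 10993 and 10909 of the 21627 protein-coding genes. At least 50% of the gene was covered for 18 members in Th1, 19 in Th2 and 26 in naive cells, which is 37.5%, 39.6% and 54.2% of the members, against 26.5%, 26.8% and 33.1% of all genes. A few genes stood at the ends of the range in every list. Gabarap, Gabarapl2 and Tfeb were covered over more than 80%. Optn, which encodes the mitophagy receptor optineurin, and Mitf, a melanocyte and osteoclast transcription factor, were covered over less than 5%. Wipi1 was at 0% in all 9 lists, so it could not be tested, and the other 47 members were.

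**Figure D1:**
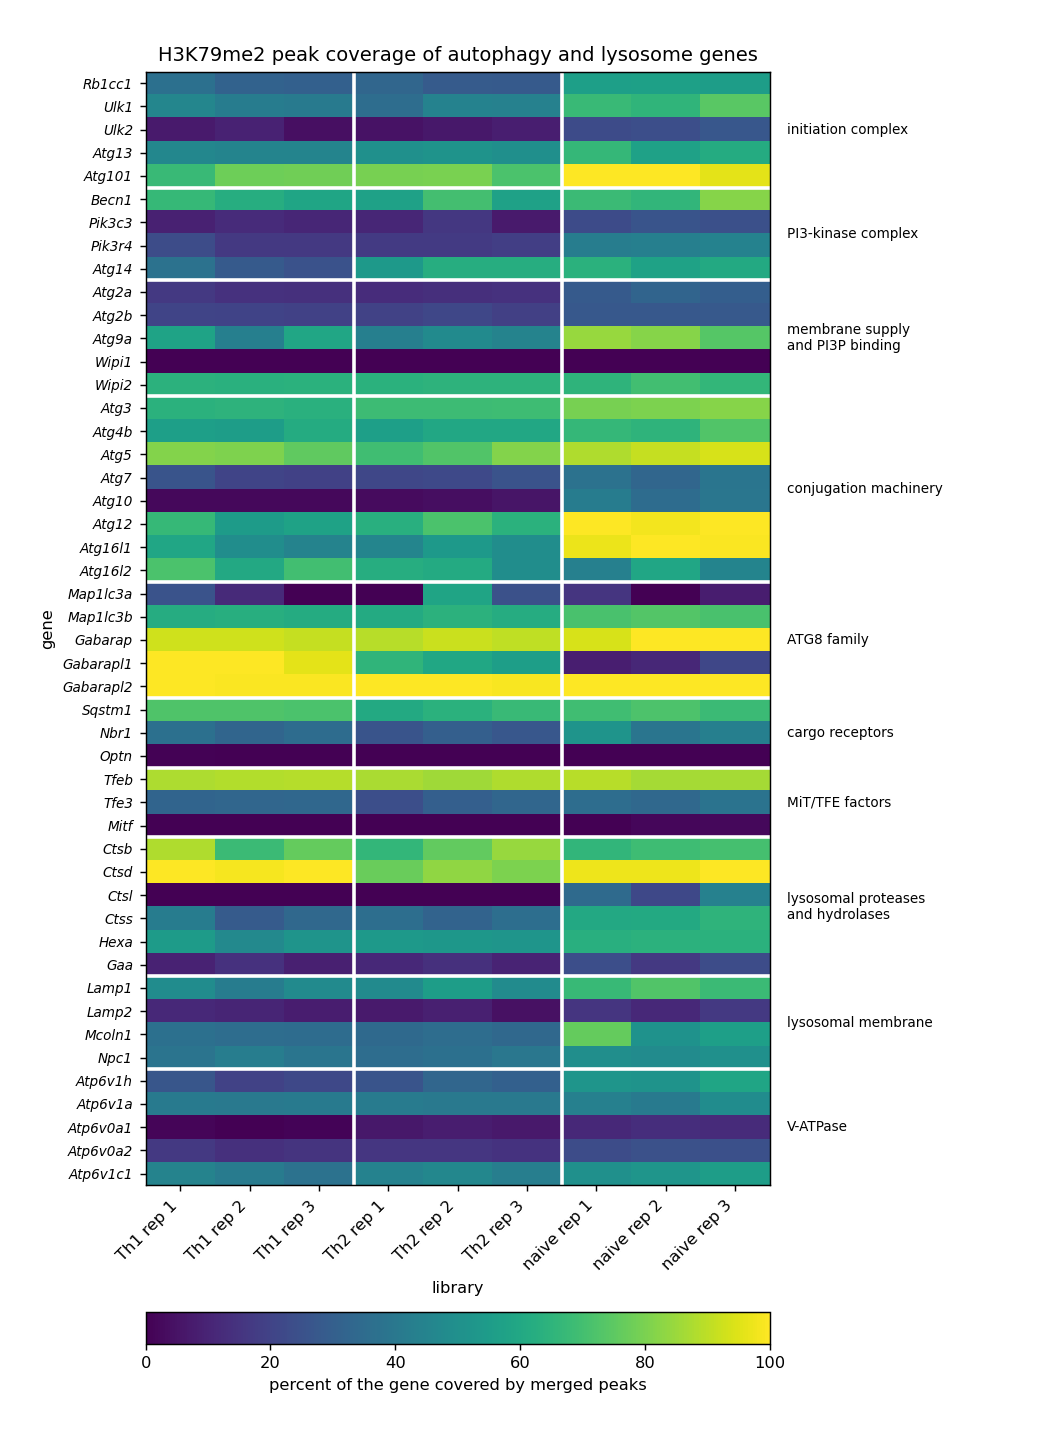
Percent of each gene covered by merged H3K79me2 peaks, for the 48 members (rows, grouped by role) in the 9 libraries (columns, 3 each of Th1, Th2 and naive cells). Gabarapl1 has the highest coverage in Th1 and the lowest in naive cells, while Atg10, Atg12, Atg16l1 and Ctsl have the highest in naive cells.

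The covered length of the 48 genes added up to 608 ± 30.6 kb in Th1, 616 ± 22.7 kb in Th2 and 943 ± 27.5 kb in naive cells (SD, n = 3 lists each) of 2257 kb of gene. The lists of Th1 and naive cells did not overlap, nor did those of Th2 and naive cells. These sums are of the full lists, which were longer in naive cells, and were not taken at equal covered length. At that length the naive coverage of the long gene Atg10 went from 38.8 to 5.61%, and that of Atg7 from 36.5 to 14.5%. Longer members had smaller covered percentages, with Spearman rho of -0.46 in Th1, -0.47 in Th2 and -0.38 in naive cells across the 48 genes, which share the same libraries and are not independent replicates. The 14 members longer than 50 kb had a median coverage of 17.6% in Th1, 17.7% in Th2 and 32.1% in naive cells. The 7 members shorter than 10 kb had medians of 62.1%, 62.4% and 71.9%.

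Differences were tested with limma over all 11597 genes whose coverage varied, and a gene was called where the Benjamini-Hochberg adjusted p was under 0.05 and the difference at least 25 percentage points. In Th1 against naive cells, 10 of 47 members fell and 1 rose. The called share over all genes was 16.3% lower and 4.38% higher, so the fall of the members (21.3%) was near that background. In Th2 against naive cells, 10 members again fell and 1 rose, with 15.4% of all genes called lower and 4.26% higher. In Th2 against Th1 cells, 1 member was higher and 1 was lower, with 2.08% and 1.56% of all genes called. Of the members covered over at least 25% in naive cells, 10 of 37 fell in each of the Th1 and Th2 comparisons, against 22.6% and 21.2% of all such genes. This filter uses the naive values, so it favours falls in advance, in the members and in all genes alike. It also leaves out Gabarapl1, at 13.6% in naive cells.

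Small losses were more common than called ones. By adjusted p alone, 34 members were lower and 2 higher in Th1 than in naive cells, with 47.9% and 11.8% of all genes, and 36 were lower and 1 higher in Th2 than in naive cells, with 47.5% and 12.1%. All 3 lists lay below all naive lists for 37 of 47 members in Th1 cells (52.5% of all genes) and for 37 in Th2 cells (53.1%), and above them for 2 members in Th1 (14.2%) and 1 in Th2 cells (14.7%). Among the members with at least 25% in naive cells, a filter that favours falls in advance, the lists lay below for 30 of 37 in each comparison. The share of such genes was 60.6% and 62.5%. The median difference of the 47 members was -11.4 points in Th1 and -10.7 points in Th2 against naive cells, while that of all genes tested was -5.55 and -5.50 points. In Th2 against Th1 cells, 3 members were higher and 3 lower by adjusted p alone (8.62% and 6.57% of all genes), the lists lay apart upward for 5 (16.3%) and downward for 4 (13.9%), and the median was -0.12 points against 0.02 for all genes.

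Fewer losses were called once the lists had equal covered length. Each list was cut from its weakest peak, by the authors' p-value, to the length of the shortest. Then 2 members fell in Th1 and 3 in Th2 against naive cells, while Gabarapl1 and Tfe3 rose in each. Of 10783 genes tested at that length, 9.57% were called lower and 7.59% higher in Th1, and 10.1% and 7.02% in Th2 cells, so called losses were no larger a share of the 43 members than of all genes. All 3 lists then lay below the naive lists for 28 of 43 members in each comparison, against 36.5% of all genes for Th1 and 38.9% for Th2 cells. They lay above the naive lists for 7 of 43 members in Th1 and 5 in Th2 cells, against 23.1% and 20.3% of all genes. The median difference was then -5.76 points for the members and -1.32 for all genes in Th1, and -6.55 and -1.92 in Th2 against naive cells. Gabarapl1, Atg12 and Atg16l1 kept their calls in both comparisons, and Atg9a kept its call in Th2 cells. By the authors' fold enrichment, the strongest peak over Atg12, Atg16l1 and Atg9a ranked lower in every naive list than in any Th1 or Th2 list. For Atg12 it stood in the top 5.34 to 5.97% of peaks in Th1, 5.86 to 7.18% in Th2 and 10.0 to 11.5% in naive lists. For Atg9a these were 6.11 to 10.9%, 6.30 to 8.30% and 15.1 to 16.5%.

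**Figure D2:**
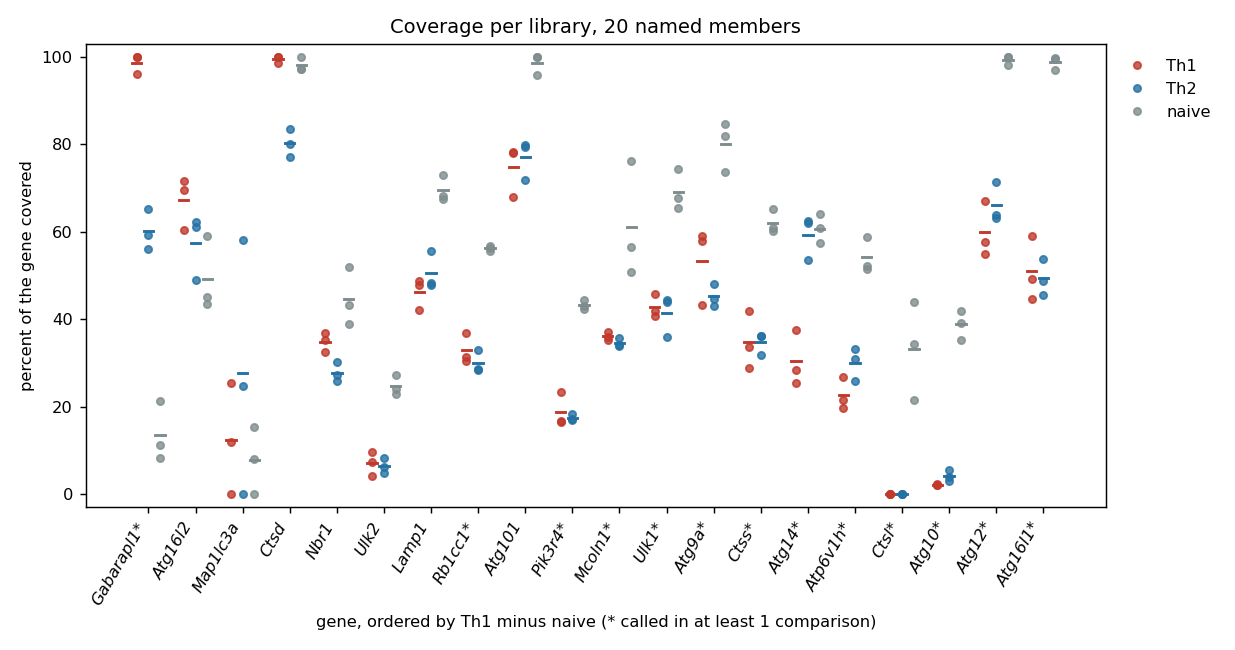
Percent of the gene covered in each library (points) with the group mean (bars) for 20 members, ordered by the difference of Th1 from naive cells. Asterisks mark the 13 members called in at least 1 comparison, of which Gabarapl1, at the left, is covered most in Th1 and least in naive cells.

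ATG8 proteins are the ubiquitin-like tags that are fixed to phosphatidylethanolamine on the growing membrane and bind cargo receptors. Of the 5 members of this family, Gabarapl1 was the single one called, and it was also the single called rise among the 48 genes. Gabarapl1 (chr6:129533192-129542331) was covered over 100, 100 and 96.0% in Th1 cells, 65.3, 59.4 and 56.1% in Th2 cells and 8.36, 11.2 and 21.3% in naive cells. The 3 cell types were fully apart, with Th1 above Th2 and Th2 above naive. The difference was 85.1 points for Th1 against naive cells (SE 3.81, limma adjusted p = 1.3e-06), 46.6 for Th2 against naive cells (adjusted p = 3e-05) and -38.4 for Th2 against Th1 cells (adjusted p = 0.00054). With lists cut to equal length, its coverage was 98.7 ± 2.29% in Th1, 59.3 ± 3.21% in Th2 and 0% in all 3 naive lists. The authors' fold enrichment of its strongest peak placed it among the top 4.52 to 5.67% of peaks of the Th1 lists, 6.05 to 7.79% of the Th2 lists and 24.2 to 25.2% of the naive lists.

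The domain of Gabarapl1 began at its 5′ end. The peak over that end reached 10.1 ± 1.59 kb into or past the 9.14-kb gene in Th1, 5.49 ± 0.334 kb in Th2 and 0.898 ± 0.166 kb in naive cells (SD, n = 3). Within the first 5 kb of the gene Th2 and Th1 cells differed by -1.28 points, which was not called. Downstream lie genes of the killer cell lectin-like receptor cluster, which were looked at after the values of Gabarapl1 had been seen. Klre1 was covered over 96.2, 89.7 and 79.5% in Th1 cells, 1.00, 1.47 and 2.14% in Th2 cells and 0% in naive cells. Klrd1, which encodes CD94, was covered over 100% in all Th1 lists, 5.18 to 10.3% in Th2 and 17.0 to 20.9% in naive lists. Klre1 and Klrd1 both encode lectin-like receptors known from natural killer cells. Klrk1, which encodes NKG2D, was covered over 99.5 to 100% in Th1, 0 to 6.17% in Th2 and 19.99 to 36.4% in naive lists. All 3 were higher in Th1 than in naive cells by limma (differences of 88.5, 80.7 and 73.0 points, adjusted p = 8.7e-07, 4.5e-08 and 3.8e-06), whereas in Th2 cells they differed from naive cells by 1.54, -11.8 and -24.3 points (adjusted p = 0.75, 0.00088 and 0.0013). In Th2 cells Gabarapl1 thus gained coverage while none of these 3 neighbours did, and upstream Tmem52b and Olr1 were at 0% in all 9 lists. Of the natural killer cell markers, Ncr1 was at 0% in all 9 lists and Klrb1c was at 0% in all but Th1 replicate 3 (2.46%).

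**Figure D3:**
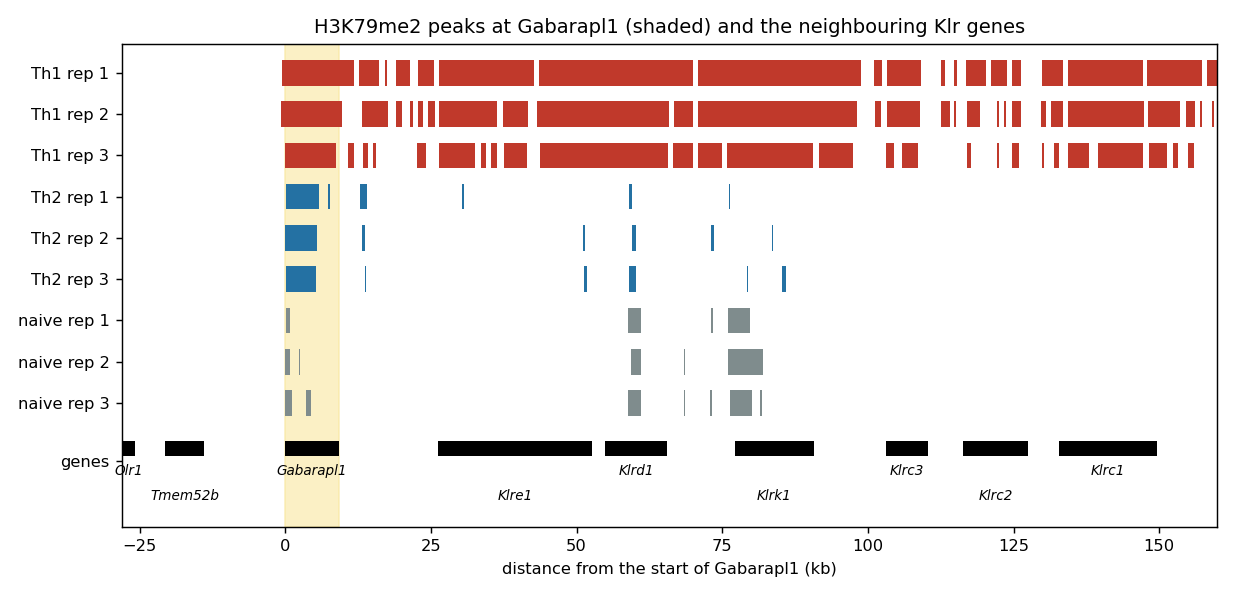
Merged H3K79me2 peaks (bars) in each of the 9 lists around Gabarapl1 (shaded, read left to right), with distance in kb from its start and gene bodies in black. Th1 lists carry peaks over Gabarapl1 and the Klr genes to its right, Th2 lists over the first 5.19 to 5.85 kb of Gabarapl1 and little beyond, and naive lists over its first 0.796 to 1.09 kb.

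The promoters of Gabarapl1, the largest gain, and of 3 members with large losses, Atg10, Ctsl and Atg9a, are shown because the mark begins beside them. They are the 300 bases from 250 before to 50 after the start in RefSeq, on GRCm38.p6 (the assembly of mm10), each on the strand of its gene. Capitals mark the hexamer CACGTG, which is present in Ctsl alone among these 4.
Gabarapl1 (chr6:129532942-129533241, plus strand): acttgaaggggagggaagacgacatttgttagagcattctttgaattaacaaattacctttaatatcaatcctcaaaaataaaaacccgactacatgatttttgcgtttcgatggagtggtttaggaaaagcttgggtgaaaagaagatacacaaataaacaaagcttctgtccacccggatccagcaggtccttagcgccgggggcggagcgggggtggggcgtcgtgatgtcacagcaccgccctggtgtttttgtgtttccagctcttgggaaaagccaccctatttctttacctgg
Atg10 (chr13:91223938-91224237, minus strand): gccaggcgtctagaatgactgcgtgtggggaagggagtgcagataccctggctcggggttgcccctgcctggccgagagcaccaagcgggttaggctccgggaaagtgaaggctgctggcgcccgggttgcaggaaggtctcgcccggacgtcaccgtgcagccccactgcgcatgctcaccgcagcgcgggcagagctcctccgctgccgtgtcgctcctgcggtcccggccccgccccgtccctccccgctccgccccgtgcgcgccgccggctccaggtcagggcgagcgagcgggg
Ctsl (chr13:64370471-64370770, minus strand): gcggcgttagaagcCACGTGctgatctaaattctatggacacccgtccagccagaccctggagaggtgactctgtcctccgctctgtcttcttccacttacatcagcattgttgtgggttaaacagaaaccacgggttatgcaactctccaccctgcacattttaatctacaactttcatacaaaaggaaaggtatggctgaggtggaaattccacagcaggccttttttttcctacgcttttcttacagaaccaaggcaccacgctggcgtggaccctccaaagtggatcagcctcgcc
Atg9a (chr1:75191961-75192260, minus strand): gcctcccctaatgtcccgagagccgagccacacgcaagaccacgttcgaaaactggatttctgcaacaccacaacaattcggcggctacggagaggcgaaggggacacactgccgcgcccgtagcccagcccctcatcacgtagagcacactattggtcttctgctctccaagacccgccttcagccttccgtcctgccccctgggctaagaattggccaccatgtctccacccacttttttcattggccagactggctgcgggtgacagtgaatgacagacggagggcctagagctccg
The 4 windows differ in base composition. The window of Atg10 has a GC content of 73% and 33 CpG dinucleotides, that of Atg9a 59.3% and 18, that of Ctsl 50% and 10, and that of Gabarapl1 46.3% and 12.

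The other ATG8 genes kept most of their coverage. Gabarapl2 was covered over 99.2 to 100% in every list. Gabarap averaged 92.2 ± 0.831% in Th1, 90.6 ± 1.30% in Th2 and 98.0 ± 3.55% in naive cells, and Map1lc3b, which encodes the LC3 protein used to count autophagosomes, 62.1 ± 0.671%, 62.4 ± 1.71% and 71.9 ± 1.20%. Both were lower in Th1 and in Th2 than in naive cells by adjusted p, by less than 10 points. The strongest peak of Map1lc3b stood in the top 2.00 to 3.11% of peaks in Th1, 3.95 to 5.21% in Th2 and 1.02 to 1.34% in naive lists by the authors' fold enrichment. The gene overlaps another gene, and whether that gene shares its peaks was not examined. Map1lc3a, only 1.71 kb long, had 25.5, 11.8 and 0% in Th1, 0, 58.2 and 24.7% in Th2 and 15.3, 0 and 7.95% in naive cells. Its 3 groups overlapped throughout, and it passed no test (adjusted p = 0.26 for Th2 against naive cells), though without Th2 replicate 1 the difference was 33.7 points and was called.

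Conjugation enzymes attach ATG12 to ATG5 and ATG8 proteins to lipid. Of the 8 members, Atg10, Atg12 and Atg16l1 fell in both polarised cell types, 7 were lower by adjusted p alone in each comparison, and 5 differed by less than 25 points. Atg16l1, whose protein joins ATG12-ATG5 into the complex that places ATG8 proteins on membranes, had the largest called loss among the 48 genes in both comparisons. Atg16l1 (chr1:87756007-87792428) was covered over 59.0, 49.1 and 44.7% in Th1, 45.7, 53.7 and 48.9% in Th2 and 97.1, 99.7 and 99.6% in naive cells. Nearly the whole gene was covered in each naive list and far less in the others, with no overlap with naive cells. The differences from naive cells were -47.8 points in Th1 (SE 3.74, limma adjusted p = 2.2e-05) and -49.4 in Th2 cells (adjusted p = 2.1e-05). In all 3 naive lists 1 peak ran from Atg16l1 into the neighbouring gene Sag. The wider naive coverage went with a lower rank of the strongest peak by the authors' fold enrichment. That peak stood in the top 4.87 to 6.11% of peaks in Th1, 4.48 to 8.97% in Th2 and 16.4 to 16.8% in naive lists.

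Atg12 (chr18:46732417-46741724), the ubiquitin-like protein joined to ATG5, was covered over 67.2, 55.0 and 57.7% in Th1, 63.2, 71.5 and 63.8% in Th2 and 100, 98.2 and 100% in naive cells. It fell by 39.4 points in Th1 and by 33.3 in Th2 cells (limma adjusted p = 4.2e-05 and 0.00011). Atg12 overlaps another gene and shares a peak with Ap3s1 in all 9 lists, so its values cannot be told from those of that neighbour. Atg10 (chr13:90935348-91224725), the E2-like enzyme for ATG12 and, at 289 kb, the longest member, was covered over 2.04, 2.31 and 2.06% in Th1, 2.97, 3.86 and 5.54% in Th2 and 42.0, 35.3 and 39.2% in naive cells. In length this was 6.18 ± 0.447 kb in Th1, 11.9 ± 3.78 kb in Th2 and 112 ± 9.75 kb in naive cells. Atg10 fell by 36.7 points in Th1 and by 34.7 in Th2 cells (limma adjusted p = 1.1e-06 and 1.7e-06). Most of the naive coverage was lost with lists cut to equal length. Only 5.61 ± 1.73% of the gene was then covered in naive cells, and the differences were -4.02 and -3.74 points. By the authors' fold enrichment in the full lists, the strongest peak over Atg10 ranked alike in the 3 cell types. It stood in the top 19.8 to 29.7% of peaks in Th1, 17.6 to 26.3% in Th2 and 20.3 to 23.0% in naive lists.

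The other conjugation genes moved less. Atg7, the E1-like enzyme of both reactions, averaged 22.0 ± 3.38% in Th1, 23.0 ± 2.40% in Th2 and 36.5 ± 2.97% in naive cells. Atg3, the E2-like enzyme for ATG8 proteins, averaged 64.0 ± 0.562%, 68.7 ± 0.290% and 80.6 ± 1.11%, and Atg5 79.2 ± 3.30%, 74.6 ± 6.21% and 91.1 ± 2.88% in Th1, Th2 and naive cells. Atg4b, a protease that trims ATG8 proteins, averaged 57.9 ± 3.20%, 58.9 ± 2.01% and 68.1 ± 4.19%. At equal covered length Atg7 averaged 18.6 ± 1.52% in Th1, 15.9 ± 1.01% in Th2 and 14.5 ± 0.531% in naive cells. Every Th1 and Th2 list of Atg7 then lay above every naive list. Atg5 then averaged 77.4 ± 2.55% in Th1, 66.4 ± 4.75% in Th2 and 72.9 ± 9.24% in naive cells. Atg16l2, a paralog of Atg16l1, went against the group, with 71.7, 60.5 and 69.6% in Th1, 62.3, 61.1 and 49.0% in Th2 and 43.5, 59.1 and 45.1% in naive cells. Its Th1 lists lay above all naive lists by 18.04 points on average (limma adjusted p = 0.024), which is under the 25-point minimum, and its Th2 lists overlapped the naive ones.

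The ULK complex starts autophagy when nutrients or growth signals fail. All 5 of its genes were lower in both polarised cell types by adjusted p alone, with every Th1 and Th2 list below every naive list. Over all genes tested, 47.9% in Th1 and 47.5% in Th2 cells were lower by adjusted p alone, and 52.5% and 53.1% had all lists below the naive ones, which is the background for the same counts in each group of genes. Ulk1 (chr5:110784489-110810120), the kinase, was covered over 45.8, 41.9 and 40.7% in Th1, 35.9, 44.5 and 44.0% in Th2 and 67.7, 65.5 and 74.4% in naive cells. It fell by 26.4 points in Th1 and by 27.7 in Th2 cells (limma adjusted p = 0.00026 and 0.00021). Rb1cc1 (chr1:6214634-6276375), the scaffold FIP200, was covered over 36.9, 31.4 and 30.5% in Th1, 33.1, 28.6 and 28.4% in Th2 and 56.3, 56.8 and 55.6% in naive cells. Its loss was called in Th2 (-26.2 points, adjusted p = 3.5e-05) but stayed under the minimum in Th1 cells (-23.3, adjusted p = 6e-05), and Th2 and Th1 cells did not differ by the test (-2.90 points, adjusted p = 0.48). Atg101, a small subunit, had 67.9, 78.1 and 78.4% in Th1, 79.5, 79.9 and 71.8% in Th2 and 100, 100 and 95.9% in naive cells, and Ulk2, the second kinase, 7.31, 9.67 and 4.22%, 4.89, 6.30 and 8.31% and 22.9, 24.0 and 27.1%. The Th1 difference of Atg101, -23.9 points, was called without Th1 replicate 2 (-25.5), Th1 replicate 3 (-25.6) or naive replicate 3 (-25.2). Atg13, the adaptor of the kinase, averaged 45.5 ± 0.826% in Th1, 50.5 ± 0.893% in Th2 and 61.7 ± 4.63% in naive cells. These losses depended on the weaker peaks for Ulk1 and Rb1cc1: with lists cut to equal length the differences of Ulk1 were -6.96 in Th1 and -8.30 points in Th2 cells and that of Rb1cc1 -12.3 in Th2 cells, none of them called. Without naive replicate 3 the Th1 difference of Ulk1 was -23.8, and without Th2 replicate 1 its Th2 difference was -24.9, neither of them called.

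The PI3-kinase complex marks the site of the membrane with PI3P, and Atg14 directs it there. Atg14 (chr14:47540893-47568434) was the single member called higher in Th2 than in Th1 cells. It was covered over 53.7, 62.4 and 62.1% in Th2 cells against 37.6, 28.4 and 25.3% in Th1 cells, and over 64.0, 57.4 and 60.9% in naive cells. Th2 and naive lists overlapped and all Th1 lists lay below both. The difference was 28.9 points for Th2 against Th1 cells (SE 3.89, limma adjusted p = 0.0025), -30.3 for Th1 against naive (adjusted p = 0.00031) and -1.37 for Th2 against naive cells (adjusted p = 0.79). With lists cut to equal length Atg14 stood at 27.7 ± 2.32% in Th1, 44.6 ± 2.30% in Th2 and 38.3 ± 9.26% in naive cells, and neither the 16.9 points of Th2 over Th1 cells nor the -10.6 points of Th1 against naive cells was called. Within the first 5 kb of the gene there was no difference (0 points), so the loss lay further downstream.

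The regulatory subunit gene Pik3r4 (chr9:105642995-105687655) was covered over 23.3, 16.7 and 16.5% in Th1, 17.1, 17.0 and 18.4% in Th2 and 42.4, 43.1 and 44.5% in naive cells. The loss was called in Th2 (-25.8 points, limma adjusted p = 1.9e-05) and missed the minimum in Th1 cells (-24.5, adjusted p = 2.3e-05). Cut to equal length, the Th2 difference was -21.4 points and not called. The catalytic subunit gene Pik3c3 averaged 10.8 ± 1.63% in Th1, 11.4 ± 4.36% in Th2 and 24.4 ± 1.43% in naive cells. Becn1, which encodes beclin 1 and overlaps another gene, averaged 62.7 ± 4.03%, 61.5 ± 7.57% and 72.0 ± 8.70%, and its groups overlapped.

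The next 5 members supply or sense the membrane. Atg9a (chr1:75180861-75192010), whose protein arrives on vesicles and moves lipids between leaflets, was covered over 57.8, 43.3 and 59.1% in Th1, 43.1, 47.97 and 44.6% in Th2 and 84.6, 82.0 and 73.7% in naive cells. It fell by 26.7 points in Th1 (limma adjusted p = 0.0017) and by 34.9 in Th2 cells (adjusted p = 0.00042), and it shares a peak with its neighbour Ankzf1 in all 9 lists. The Th1 call was lost without Th1 replicate 2 (-21.6 points), without naive replicate 1 (-24.4) and at equal covered length (-14.3). Atg2a and Atg2b, which encode lipid transfer proteins, averaged 14.9 ± 1.64 and 20.1 ± 0.614% in Th1, 13.5 ± 0.752 and 19.9 ± 1.22% in Th2 and 30.0 ± 1.92 and 27.7 ± 0.159% in naive cells. Wipi2, the PI3P reader that recruits ATG16L1, was covered over 63.4 to 69.8% in all 9 lists, while its paralog Wipi1 had no peak.

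Cargo receptors and the MiT/TFE transcription factors held no called member. Sqstm1, the receptor p62, averaged 72.2 ± 0.526% in Th1, 64.1 ± 3.50% in Th2 and 69.7 ± 1.98% in naive cells, with a difference of -8.07 points for Th2 against Th1 cells (limma adjusted p = 0.032). Nbr1, a related receptor, had 36.9, 32.5 and 35.3% in Th1, 25.8, 30.3 and 27.3% in Th2 and 51.9, 39.0 and 43.3% in naive cells, so that both polarised groups lay below all naive lists. At equal covered length Nbr1 averaged 32.8 ± 2.22% in Th1, 27.2 ± 2.22% in Th2 and 28.8 ± 1.45% in naive cells. Its Th1 lists then lay above all naive lists, and its Th2 lists overlapped them. Tfeb, which encodes an activator of lysosomal genes, was covered over 85.8 to 89.2% in all 9 lists, with a domain that ended 49.1 ± 0.248 kb from the 5′ end in Th1, 48.6 ± 0.565 kb in Th2 and 48.3 ± 0.597 kb in naive cells. Tfe3 averaged 32.8 ± 0.622% in Th1, 29.2 ± 4.65% in Th2 and 35.8 ± 2.09% in naive cells. The naive peaks of Tfe3 were weak: at equal covered length they were gone, at 0% in all 3 lists, against 32.8 ± 0.622% in Th1 and 29.2 ± 4.65% in Th2 cells.

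Lysosomal proteases and hydrolases gave 2 of 6 members that fell in both comparisons, Ctsl and Ctss, which encode cysteine cathepsins. Ctsl (chr13:64361890-64370772) had no peak in any Th1 or Th2 list and was covered over 34.4, 21.5 and 44.0% in naive cells, a difference of -33.3 points in Th1 and in Th2 cells (SE 4.79, limma adjusted p = 0.00058 and 0.0006). Those naive peaks were weak, within the top 31.1 to 52.1% of their lists by the authors' fold enrichment, and none remained at equal covered length. Naive lists also had Cd79b covered where Th1 and Th2 lists did not, as given above, and the part of B or myeloid cells in the cathepsin values was not tested. Ctss (chr3:95526786-95556405), which trims the invariant chain in antigen-presenting cells, was covered over 42.0, 28.8 and 33.7% in Th1, 36.3, 31.8 and 36.1% in Th2 and 60.3, 60.9 and 65.1% in naive cells. It fell by 27.3 points in Th1 and by 27.4 in Th2 cells (limma adjusted p = 0.00028 each). Without Th1 replicate 2 the Th1 difference was -24.3 points and no longer called. At equal covered length the differences of Ctss were -12.1 and -19.5 points, not called.

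Ctsd, which encodes the aspartic protease cathepsin D, was lower in Th2 cells by adjusted p alone. It was covered over 77.2, 83.5 and 80.2% in Th2 cells against 100, 98.7 and 100% in Th1 cells, and over 97.4, 97.4 and 100% in naive cells. All Th2 lists lay below all others, with -19.2 points against Th1 cells (limma adjusted p = 0.00024), under the 25-point minimum. Ctsb averaged 77.6 ± 10.0% in Th1, 75.5 ± 9.004% in Th2 and 68.4 ± 2.44% in naive cells with overlapping groups. Hexa, a subunit of hexosaminidase, averaged 51.2 ± 4.01%, 53.0 ± 0.868% and 63.8 ± 0.550%, and Gaa, the acid alpha-glucosidase, 10.8 ± 3.05%, 11.8 ± 1.88% and 21.2 ± 4.08% in Th1, Th2 and naive cells. Ctsb and Hexa overlap other genes, and whether those share their peaks was not examined.

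All 4 lysosomal membrane genes were lower in both polarised cell types by adjusted p alone, as were 47.9% of all genes in Th1 and 47.5% in Th2 cells, and Mcoln1 was called, as were 16.3% and 15.4% of all genes. Mcoln1 (chr8:3500519-3515232), which encodes the calcium channel TRPML1, was covered over 37.0, 35.8 and 35.3% in Th1, 34.0, 35.7 and 33.9% in Th2 and 76.2, 50.8 and 56.5% in naive cells. It fell by 25.1 points in Th1 and by 26.7 in Th2 cells (SE 5.81, limma adjusted p = 0.0066 and 0.005). Naive replicate 1 stood above the other naive lists, and without it the differences were -17.6 and -19.1 points and no longer called. Without Th1 replicate 3 the Th1 difference was -24.7, and at equal covered length the differences were -12.9 and -14.4, none of these called. In all 3 naive lists 1 peak of Mcoln1 extended into the neighbour Pnpla6. Lamp1, which encodes an abundant lysosomal membrane glycoprotein, had 48.8, 42.0 and 47.9% in Th1, 47.9, 55.6 and 48.2% in Th2 and 67.4, 72.9 and 68.1% in naive cells, with differences of -23.2 points in Th1 and -18.9 in Th2 cells that were not called. Lamp2 averaged 9.98 ± 1.67% in Th1, 6.83 ± 2.20% in Th2 and 14.6 ± 2.79% in naive cells, and Npc1, the cholesterol exporter, which overlaps another gene, 39.9 ± 2.20%, 37.4 ± 1.87% and 49.3 ± 1.08%. At equal covered length the order of Lamp2 was reversed, with 8.48 ± 0.661% in Th1, 5.33 ± 1.40% in Th2 and 0% in all 3 naive lists.

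The V-ATPase is built of a V1 sector that splits ATP and a V0 sector that carries protons. Of 5 members, Atp6v1h was called. Atp6v1h (chr1:5082978-5163213), a regulatory V1 subunit, was covered over 26.9, 19.7 and 21.5% in Th1, 25.9, 33.2 and 30.8% in Th2 and 52.2, 51.5 and 58.8% in naive cells. The difference was -31.5 points in Th1 (limma adjusted p = 6.5e-05) and -24.2 in Th2 cells (adjusted p = 0.00028), the second under the minimum, and at equal covered length the Th1 difference was -15.1 and not called. The catalytic V1 gene Atp6v1a kept 40.3 to 41.4% in Th1 and Th2 and 40.8 to 48.5% in naive cells. Atp6v0a1, a V0 subunit gene, averaged 0.888 ± 0.478% in Th1, 7.14 ± 0.896% in Th2 and 12.3 ± 0.797% in naive cells, and Th2 exceeded Th1 cells by 6.25 points (limma adjusted p = 0.00057). Atp6v0a2 and Atp6v1c1 averaged 15.2 ± 1.42 and 41.3 ± 3.58% in Th1, 15.4 ± 0.578 and 44.5 ± 1.66% in Th2 and 24.1 ± 0.899 and 52.6 ± 2.80% in naive cells.

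In the full lists, the merged peak over the 5′ end stopped earlier in polarised cells in most members and most other genes. The far edge of this peak was taken even where it lay past the gene or where further peaks followed after a gap. The edges were not measured at equal covered length, so a longer naive domain and a longer naive list cannot be told apart here. The gene strand was known for 37 members, and 30 of them had a peak over the first 1 kb of the gene in all 9 lists. The far edge of that peak was closer to the 5′ end in all 3 Th1 lists than in any naive list for 19 of 30 members, against 51% of 6534 genes with such a peak, and further for Gabarapl1 alone, against 10.9%. In Th2 cells it was closer for 22 of 30 and further for Gabarapl1 alone, against 52.3% and 10.5% of genes. Among these 22 was Gabarap, a gene of 3.58 kb. Its edge lay far past the gene, at 26.1 ± 14.9 kb in Th2 and 47.2 ± 3.25 kb in naive cells. The median shift of the edge was -1.85 kb for the members in Th1 and -2.06 kb in Th2 cells, while it was -1.69 and -1.65 kb over all such genes. In Atg3 the edge stood at 10.9 ± 0.104 kb in Th1, 10.7 ± 0.327 kb in Th2 and 23.6 ± 0.0573 kb in naive cells. Every Th1 and Th2 list of Atg3 had a further peak after a gap, as from 13.9 to 22.3 kb in Th1 replicate 2. The edge of Atg3 in these lists is thus not the end of the mark. In Ctss the edge stood at 4.34 ± 0.955 kb, 4.66 ± 1.70 kb and 13.1 ± 0.302 kb in Th1, Th2 and naive cells. Every Th1 and Th2 list of Ctss also had further peaks beyond it, as from 4.07 to 11.1 kb in Th1 replicate 1. In Lamp1 the edge stood at 7.59 ± 0.604 kb, 8.05 ± 0.831 kb and 11.4 ± 0.483 kb, and in Mcoln1 at 5.37 ± 0.172 kb, 5.22 ± 0.175 kb and 7.20 ± 0.895 kb. In Sqstm1 it stood at 7.70 ± 0.0561 kb in Th1, 6.84 ± 0.374 kb in Th2 and 7.44 ± 0.211 kb in naive cells.

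**Figure D4:**
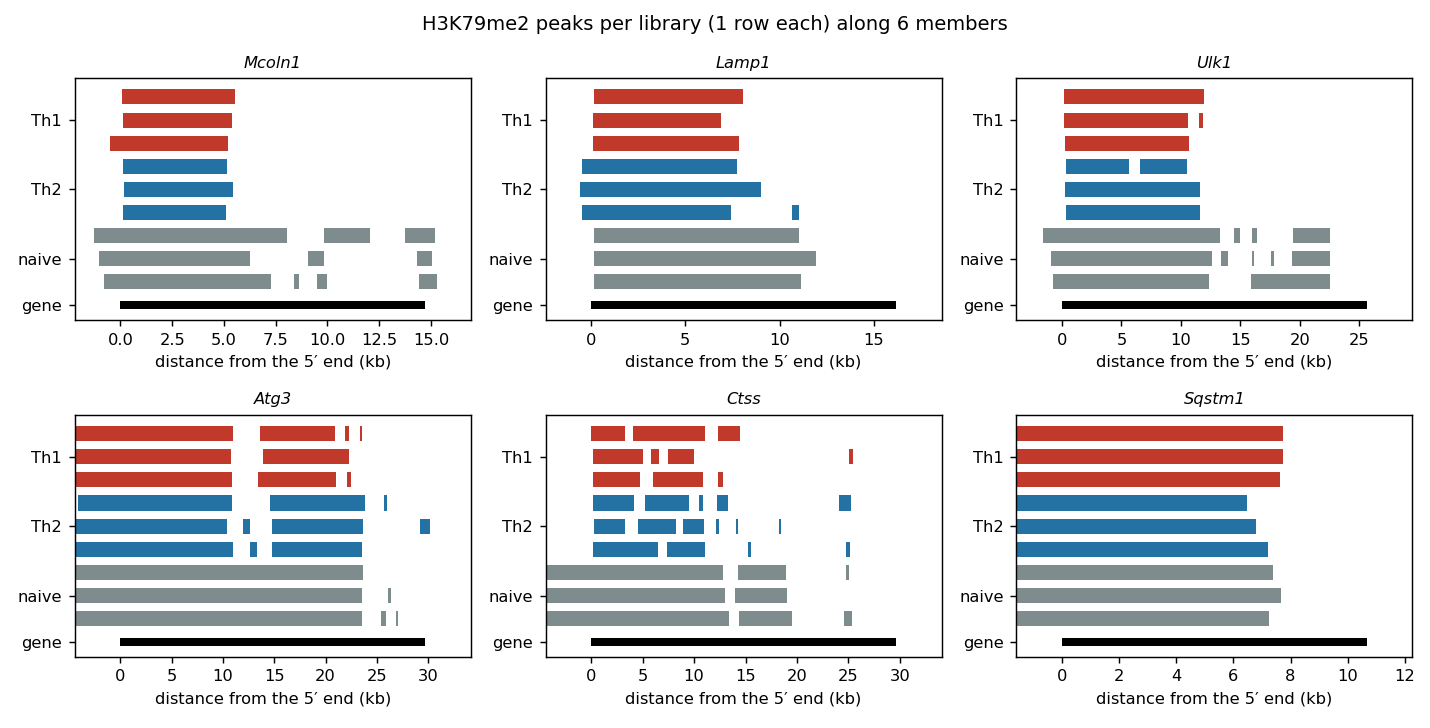
Merged H3K79me2 peaks in each list (1 row per library, Th1 at the top, then Th2 and naive) along 6 members, with distance in kb from the 5′ end and the gene in black. Domains start before or just inside the 5′ end in all 9 lists. The peak over that end reaches further in naive lists in Mcoln1, Lamp1, Ulk1, Atg3 and Ctss but not in Sqstm1. In Atg3 and Ctss the Th1 and Th2 lists have further peaks after a gap.

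Averaged over the 37 members, coverage of the first 20% of the gene was 73.5 ± 1.65% in Th1, 72.4 ± 0.997% in Th2 and 82.5 ± 1.52% in naive cells. In the middle 20% it was 38.7 ± 3.93%, 38.0 ± 1.52% and 52.5 ± 2.02%, and in the last 20% 16.1 ± 0.669%, 13.8 ± 0.175% and 23.2 ± 1.41%. The difference of Th1 from naive cells was thus widest in the middle, at -13.8 points, against -8.98 in the first and -7.10 in the last 20%. Over 9375 genes tested with a known strand the same differences were -10.7, -4.62 and -7.53 points, and the widest was -11.1 points, in the bin from 60 to 80% of the length. These bins too are of the full lists and were not measured at equal covered length.

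**Figure D5:**
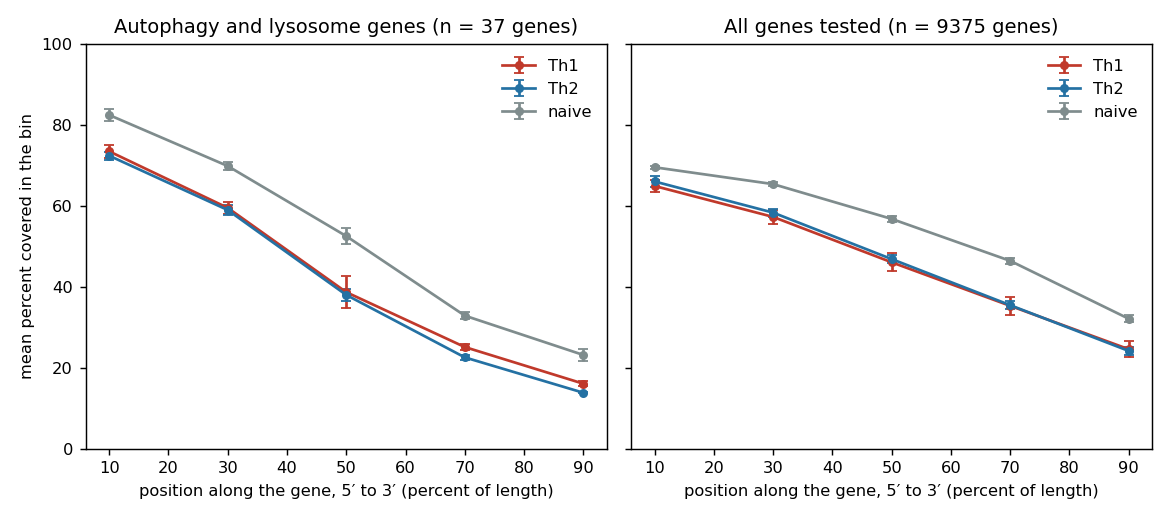
Mean percent covered in 5 successive bins of 20% of the gene length, from the 5′ to the 3′ end, for 37 members (left) and 9375 genes tested (right). Points are means of 3 lists, bars are SD, and the naive curve lies above the Th1 and Th2 curves in every bin of both panels.

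TFEB and TFE3 bind lysosomal and autophagy genes at the CLEAR element, an E-box. The promoters of 37 members were matched in RefSeq and searched for the hexamer CACGTG and the octamer TCACGTGA, which contains it. Both are their own reverse complements, so a match holds for both strands. CACGTG was in 10 of 37 member promoters (27.0%), against 9.02% of 17273 genes, and TCACGTGA in 4 (10.8%), against 1.42%. These 10 were Atg14, Atg3, Atg5, Atg7, Lamp1, Ctsd, Ctsl, Gaa, Mcoln1 and Atp6v1a, and a match is a description of letters, not of binding. The match of Atg7, at chr6:114670960-114670973, lies inside the gene body used for coverage, which starts at 114643127. The 4 promoters with the octamer and that of Lamp1, which holds 4 hexamers, are shown by their matches with 4 bases on either side, the hexamer in capitals, because they carry the motif for which the gene group is known.
Atg3 (chr16:45158754-45158767, plus strand): gagtCACGTGaggc
Ctsd (chr7:142387916-142387929, minus strand): gtctCACGTGaccc
Mcoln1 (chr8:3500470-3500483, plus strand): cgctCACGTGaccg
Atp6v1a (chr16:44139381-44139394, minus strand): aaatCACGTGatag
Lamp1 (chr8:13159096-13159109, plus strand): atatCACGTGgtcc
Lamp1 (chr8:13159112-13159125, plus strand): cgccCACGTGatgc
Lamp1 (chr8:13159129-13159142, plus strand): ctggCACGTGacca
Lamp1 (chr8:13159142-13159155, plus strand): acatCACGTGcgga
Of these 10 genes, Mcoln1 and Ctsl were called lower than naive cells in both polarised cell types and Atg14 in Th1 cells. Atg3, Atg5, Atg7, Lamp1, Ctsd, Gaa and Atp6v1a were not called, and Atp6v1a passed no test (limma adjusted p = 0.17 in Th1 and 0.16 in Th2 cells). Over all genes tested, 16.3% were called lower in Th1 and 15.4% in Th2 cells. The calls of Mcoln1, Ctsl and Atg14 were all lost at equal covered length.

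Further genes of the pathway were taken from 4 other lists with 136 genes, of which 117 varied and were tested. In Th1 against naive cells 26 fell and 4 rose, in Th2 against naive cells 27 fell and 3 rose, and in Th2 against Th1 cells 1 was higher and 1 lower. Over all genes tested, 16.3% were called lower and 4.38% higher in Th1, and 15.4% and 4.26% in Th2 against naive cells, which is also the background for the counts of each list below. The median difference of these 117 genes was -12.2 points in Th1 and -12.5 in Th2 against naive cells, close to that of the 47 members. Among 36 other autophagy genes, 7 fell and 2 rose in Th1 cells, and 9 fell and 2 rose in Th2 cells. Bnip3, a mitophagy receptor, rose to 98.1 ± 3.36% in Th1 and 96.2 ± 2.02% in Th2 cells, against 35.6 ± 7.81% in naive cells. Pink1, the kinase that flags damaged mitochondria, fell to 30.1 ± 3.28% in Th1 and 31.1 ± 9.73% in Th2 cells, against 88.2 ± 2.09% in naive cells. Zfyve1, a PI3P-binding protein of omegasomes, averaged 36.9 ± 7.21%, 35.5 ± 4.04% and 90.4 ± 1.23%, and Vps18, a subunit of the tethers of late endosomes, 58.4 ± 7.45%, 46.9 ± 10.9% and 99.9 ± 0.156% in Th1, Th2 and naive cells.

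Among 48 other lysosomal hydrolase and membrane genes, 16 fell and 2 rose in Th1 cells, and 14 fell and 1 rose in Th2 cells. Glb1, the lysosomal beta-galactosidase, was the call between the polarised types, with 96.3 ± 1.65% in Th2 against 31.5 ± 4.59% in Th1 cells and 83.8 ± 3.25% in naive cells, but it overlaps another gene. Sgsh, which also overlaps another gene, averaged 13.4 ± 3.03% in Th1, 22.9 ± 1.66% in Th2 and 73.9 ± 8.32% in naive cells. Lgmn, the asparaginyl endopeptidase, averaged 5.37 ± 3.64% in Th1, 12.9 ± 3.81% in Th2 and 55.4 ± 1.79% in naive cells. Of 14 other V-ATPase genes 1 was called, Atp6ap1, with 45.6 ± 10.4% in Th1, 45.8 ± 1.62% in Th2 and 79.5 ± 3.82% in naive cells. Of 19 genes of the mTORC1 machinery at the lysosome, 2 fell in Th1 and 3 in Th2 cells. Flcn, folliculin, averaged 22.6 ± 2.08%, 24.2 ± 3.27% and 64.2 ± 3.23% in Th1, Th2 and naive cells, Nprl3 26.0 ± 5.85%, 26.4 ± 4.78% and 63.0 ± 4.45%, and Rragc 48.9 ± 6.31%, 36.1 ± 3.35% and 69.4 ± 6.18%.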

How the data were processed

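The data were 9 broad peak lists, 1 per H3K79me2 library; the 9 input libraries were not used here. The submitters' processing notes name MACS2, SAMtools, Picard and Bowtie2 with build mm10. Their versions, their settings and the use made of inputs are not given in the sources used here. Per peak, the authors deposited a display score, a fold enrichment ratio, a −log10 p-value and a −log10 q-value, used only to rank or filter peaks within a list. The lists hold no read counts, so depth is unknown and no counting interval was set.

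Overlapping peaks of a library were merged, and the percent of each RefSeq gene body (GRCm38.p6) covered was compared with limma 3.58.1 (R 4.3.3; lmFit, eBayes with a variance trend) over the 9 libraries at 6 residual degrees of freedom, after genes with 1 value in all lists were left out. P-values were adjusted over all 11597 genes; calls needed 25 points. Strand came from the RefSeq promoter table. The fit was tested on simulated data. Members and lists were chosen with earlier results of these data known. Members called in any comparison are given with every library's value, together with the uncalled ones with the largest differences, up to 20; of other lists, up to 4 called genes each, some of which are not reported here. Alternatives were a −log10 q of at least 5, lists cut to 217 Mb, centring, joining peaks under 1 kb apart, no filter, bases in no other gene, the first 5 kb, a 10-point minimum, a replicate block and leaving out each library.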

Additional observations from a re-analysis of the deposited data

Results flagged for a closer look

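Of the 47 members tested, 6 differed between Th2 and Th1 cells by adjusted p alone, and 2 of them, Gabarapl1 and Atg14, also by at least 25 points, so that their differences from naive cells were unlike in the 2 cell types. The reporter strain differed between Th2 and Th1 cells too. Gabarapl1 gained 46.6 points in Th2 and 85.1 in Th1 cells against naive cells, so that Th2 minus Th1 was -38.4 points (limma adjusted p = 0.00054), with all 3 Th2 lists below all 3 Th1 lists. Atg14 differed from naive cells by -1.37 points in Th2 and -30.3 in Th1 cells, so that Th2 minus Th1 was 28.9 points (limma adjusted p = 0.0025), with all 3 Th2 lists above all 3 Th1 lists. The Gabarapl1 difference was no longer called within the first 5 kb of the gene (-1.28 points), nor was that of Atg14 at equal covered length (16.9 points), with a −log10 q of at least 5 (12.8 points) or within the first 5 kb (0 points). Over all genes, 2.08% were called higher and 1.56% lower in Th2 than in Th1 cells.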

How the results depend on the processing

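Of 31 named differences, Lamp1 in Th1 against naive cells was the one to change sign among 17 alternatives, at 0.427 points in the first 5 kb. Members called lower in Th1 against naive cells, 10, became 6 with a −log10 q of at least 5, 2 at equal covered length, 4 after centring, 4 in the first 5 kb and 26 with a 10-point minimum; those called higher, 1, became 2 with that q, at equal length, after centring and at 10 points. For Th2 against naive cells, 10 lower became 3 at equal length, 5 after centring, 5 in the first 5 kb and 24 at 10 points, and 1 higher became 2 with that q and at equal length. The genes behind these counts changed too. With that q Atg12, Atg16l1 and Ctss stayed called lower in both comparisons, as did Atg9a in Th2 cells. Atg3, Atg5 and Hexa were new in both. The losses of Atg10, Ctsl, Mcoln1 and Ulk1 were no longer called in either, nor those of Atg14, Atg9a and Atp6v1h in Th1 cells. Those of Pik3r4 and Rb1cc1 in Th2 cells were no longer called either. In the first 5 kb Ctsl alone stayed called lower, and Atg2a, Gaa and Mitf were new in both. For Th2 against Th1 cells, 1 higher became 0 with that q, at equal length and in the first 5 kb, and 1 lower became 0 in the first 5 kb and 2 at 10 points.

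For the other lists, Th1 against naive cells, 4 higher became 7 at equal length and 2 in the first 5 kb, and 26 lower became 17 at equal length, 15 after centring and 61 at 10 points. For Th2 against naive cells, 3 higher became 5 with that q, 6 at equal length, 1 in the first 5 kb and 7 at 10 points, and 27 lower became 67 at 10 points. For Th2 against Th1 cells, 1 higher became 2 in the first 5 kb and at 10 points, and 1 lower became 2 with that q, after centring, with peaks joined and in the first 5 kb, 4 at equal length and 8 at 10 points. Centring moved the median of all genes from -5.55 to 2.70 points in Th1 and from -5.50 to 2.19 in Th2 against naive cells, with 10.1% and 9.64% of genes then lower and 6.35% and 6.37% higher.

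Leaving out 1 library gave 8 to 12 members lower and 1 to 1 higher in Th1, 9 to 11 lower and 1 to 2 higher in Th2 against naive cells, and 1 to 1 in each direction in Th2 against Th1 cells. For the other lists the ranges were 24 to 26 lower and 4 to 4 higher, 26 to 28 lower and 3 to 3 higher, and 1 to 3 lower and 1 to 1 higher. The covered length differed by -60.5 to -49.0 Mb, -44.4 to -35.6 Mb and 9.23 to 20.9 Mb in these comparisons. Same-numbered libraries did not deviate together (9 pairs, r from -0.0744 to 0.00149), and 0 of 9 libraries correlated best with its own number, so the numbers were not taken as pairs. With the replicate block, 10 members were lower and 1 higher in Th1 and in Th2 against naive cells, and 1 each way in Th2 against Th1 cells. The first 5 kb could be measured only for the 37 members with a strand, so Atg12, Atg16l1 and others had no value there. Where a setting changed a call, the cause was not tested. Unknown depth limits every comparison of covered length.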

Other observations

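The authors' fold enrichment ranked Ctsb high in every list although its covered percentage overlapped between cell types. The strongest peak over Ctsb stood in the top 1.70 to 2.46% of peaks in Th1 lists, 2.28 to 2.60% in Th2 lists and 1.50 to 2.31% in naive lists, and the gene overlaps another gene. Members with more than 80% coverage in every list were not all of this kind. The strongest peak over Gabarapl2 stood in the top 13.6 to 15.1% in Th1, 11.2 to 13.3% in Th2 and 5.67 to 10.3% in naive lists, and that over Tfeb in the top 7.32 to 8.08%, 8.70 to 11.6% and 7.51 to 9.48%.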
